A study of Mus musculus with 112 samples.

Results

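The hearts of 129S1/SvImJ and CBA/J mice were compared for how caloric restriction (CR) changed their gene expression. These were 32 of the 112 arrays of the series, 8 in each of 4 groups: 129S1/SvImJ control, 129S1/SvImJ CR, CBA/J control and CBA/J CR. The pair was chosen by its own readout, because genes of the fasting response moved in opposite directions under CR in these strains. The values that chose it were log2 signals, as CR minus control in 129S1/SvImJ less CR minus control in CBA/J. That difference and the CR effect within each strain are therefore given as a description, with their standard errors (SE). Where genes are counted as called or past the threshold for the difference (adjusted p under 0.05, limma), the threshold only sorts the genes by size against error, and the counts support nothing, since the pair was picked on that contrast. The mean CR effect of both strains and the strain difference over both diets did not enter the choice for genes outside the fasting response, and were tested.

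All 32 mice were males of an inbred strain, purchased at 6 weeks of age and housed singly. All received 84 kcal of purified diet per week until 8 weeks of age, when the control and CR diets began. The mice were killed at 22 weeks of age, with 14 weeks on the diets behind them and after an overnight fast, so control and CR mice were all in the fasted state. The food of the 129S1/SvImJ CR mice was lowered once more during the experiment and that of the CBA/J CR mice was not. The strain and the extent of restriction thus cannot be told apart. The hour of collection is not given in the sources used here. Every heart had an array of its own (Affymetrix Mouse Gene 1.0 ST), so the spread within a group is the spread between mice. A log2 signal is the array's brightness for a gene, and a difference of 1 on this scale is a doubling. Levels of different genes were not compared, because each probe set has a brightness of its own.

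The fasting response of the heart is run in large part by the nuclear receptor PPAR-alpha. Fatty acids released from adipose tissue bind PPAR-alpha, which pairs with a retinoid X receptor on DNA and raises transcription of genes for fatty acid uptake, activation, entry into mitochondria and oxidation. Pdk4, which shuts down pyruvate dehydrogenase and so spares glucose, Angptl4, a secreted inhibitor of lipoprotein lipase, and Ucp3, a mitochondrial uncoupling protein, are among its most responsive targets in muscle and heart. The heart also has a circadian clock of its own, which responds to feeding time and drives a share of the lipid genes.

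In 129S1/SvImJ, CR hearts had lower signals than controls for most of the measured PPAR-alpha targets. In CBA/J the opposite shift was clear in Angptl4 and Ucp3, and small in Pdk4. For the other targets CBA/J showed little change, so opposed directions describe a few genes of the response and not the response as a whole. Among the clock genes, a few members stood out. Arntl was lower under CR in 129S1/SvImJ, whereas Ciart, Dbp and Bhlhe41 were lower under CR in CBA/J. Tfrc, Alas1 and the tubulin gene Tuba4a, of iron uptake, haem synthesis and the cytoskeleton, were higher under CR in both strains, with larger values in 129S1/SvImJ.

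One array stood apart. The correlation of CBA/J control replicate 1 with the mean of the rest of its group was 0.894, against 0.983 to 0.997 for the other 31 arrays. Its ventricular cardiomyocyte markers averaged 10.45 (10 genes), against 11.30 to 11.50 in the other 7 CBA/J controls. Markers of the atrial cardiomyocyte, the white and brown adipocyte, the lymphocyte and the neutrophil were high on it, and the endothelial markers were low. CBA/J CR replicates 2 and 3 shared its high atrial and adipocyte markers. The atrial myosin light chain Myl7 read 11.86 on CBA/J control replicate 1, 12.52 on CBA/J CR replicate 2 and 11.55 on CBA/J CR replicate 3. The brown fat uncoupling protein Ucp1 read 10.83, 9.82 and 8.06 on the same arrays. On the other arrays Myl7 stayed at or under 6.44 and Ucp1 at or under 4.77. The arrays of 129S1/SvImJ were alike in the atrial markers, with means of 6.83 to 7.01 in controls and 6.91 to 6.98 under CR. The ventricular list, which defines the labelled tissue, averaged 11.52 to 11.66 and 11.44 to 11.64 in the control and CR hearts of 129S1/SvImJ and 11.20 to 11.57 in CBA/J CR hearts. Values without CBA/J control replicate 1, or without all 3 of these arrays, are given where leaving them out turned a sign or moved a difference far.

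**Figure D1:**
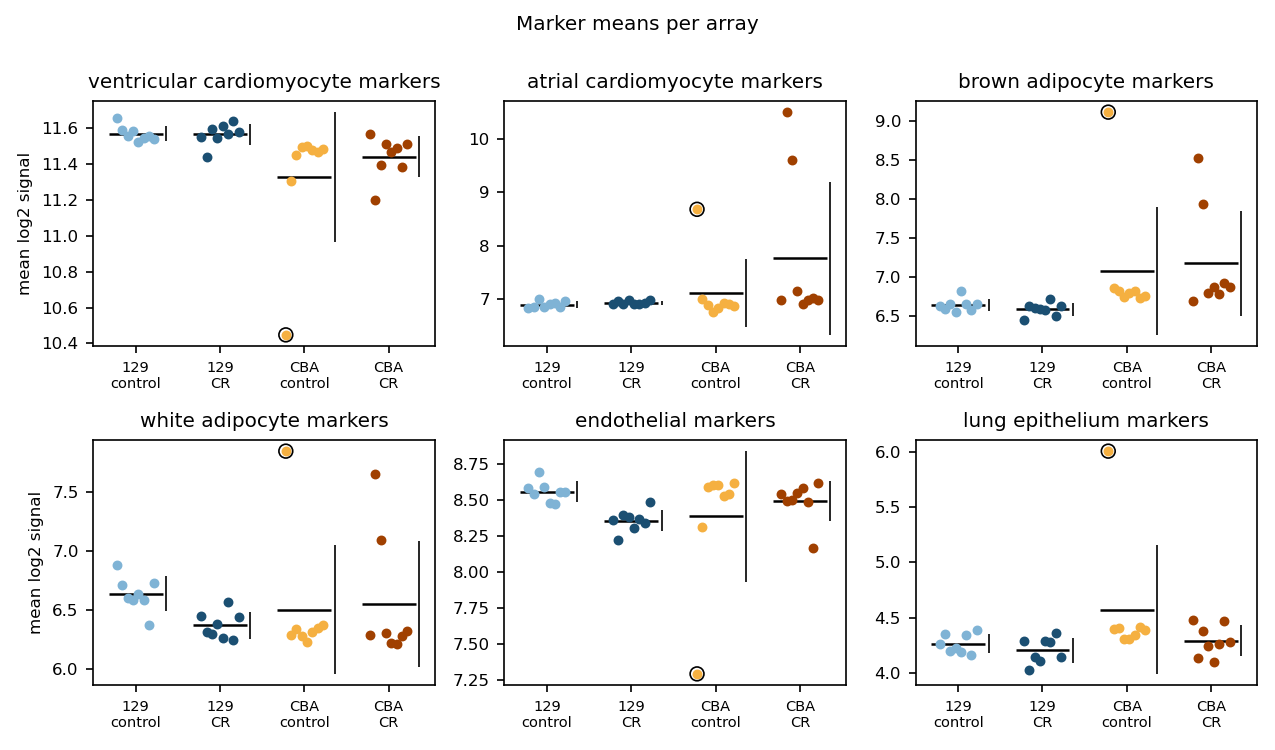
Mean log2 signal of the marker genes of 6 cell types (y axis) on each array of the 4 groups (x axis); bars are group means, vertical lines are SD over 8 arrays, and the ring marks CBA/J control replicate 1. The ringed array lies at 10.45 for ventricular and 8.68 for atrial markers, and CBA/J CR replicates 2 and 3 lie at 10.50 and 9.60 for atrial markers, while the 129S1/SvImJ arrays cluster tightly.

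Over all 19938 genes, CR effects differed between the strains at an adjusted p under 0.05 (limma) for 68 genes. CR minus control was lower in 129S1/SvImJ than in CBA/J for 46 of them, or 0.231% of the genes tested, and higher for 22, or 0.11%. The contrast chose the pair, so nothing is read from these counts. Of the 68 genes, 32 were below 0 in 129S1/SvImJ and above 0 in CBA/J, and 14 had the reverse signs. The remaining genes shifted the same way in both strains by unequal amounts. Without CBA/J control replicate 1 the calls numbered 213, with 107 lower (0.537%) and 106 higher (0.532%) in 129S1/SvImJ, and all 68 genes were among them. Opposed signs remained for 43 of the 46 genes that had them. The split into lower and higher calls moved with the scaling of the arrays, from 46 and 22 as deposited to 52 and 39 after another quantile normalization, and to 30 and 24 after centring each array on its median.

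The group that stood farthest from the mean of the other 3 was the 129S1/SvImJ control group for 40 of the 68 genes. The 129S1/SvImJ CR group was farthest for 15, the CBA/J control group for 7 and the CBA/J CR group for 6. Over all genes the 129S1/SvImJ control group was the farthest one for 26.3%. With CBA/J control replicate 1 left out it was farthest for 110 of the 213 genes, against 29.6% of all genes.

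**Figure D2:**
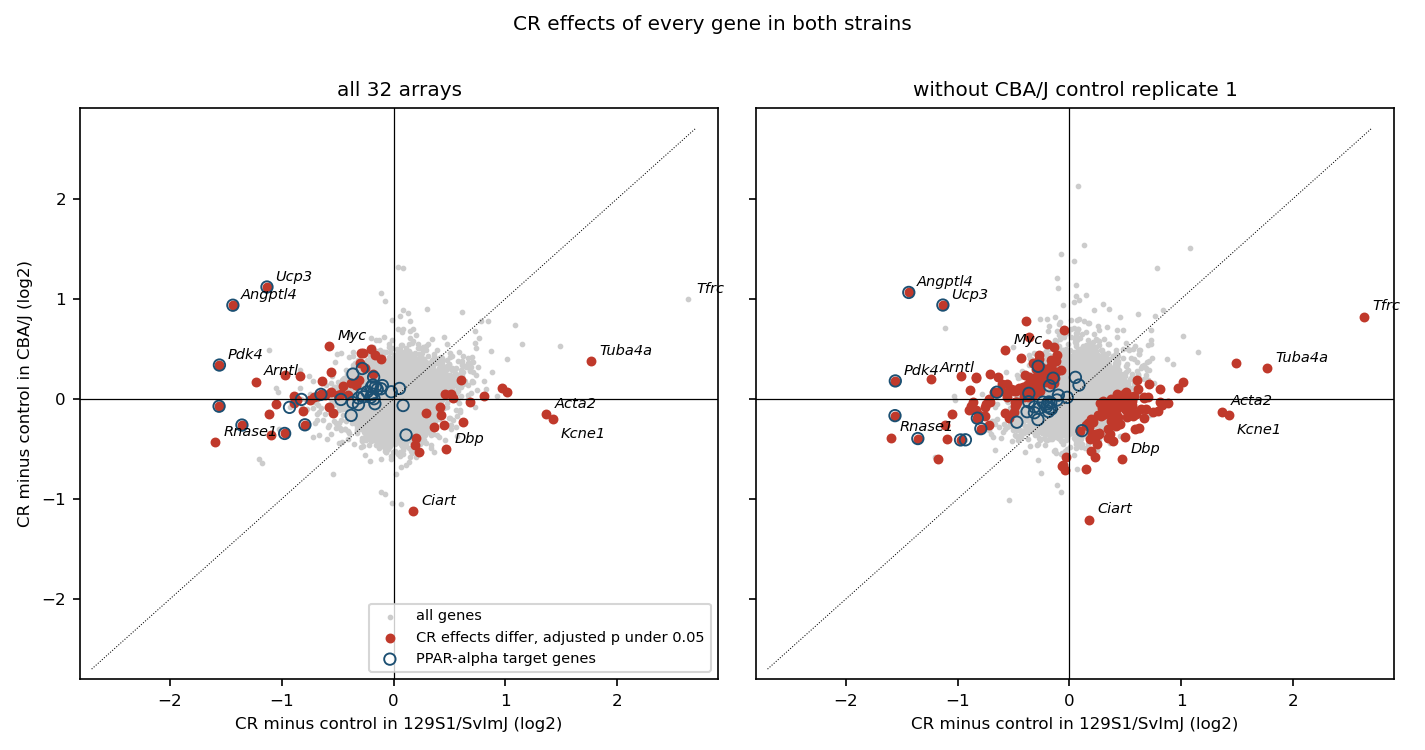
CR minus control (log2) of each of 19938 genes in 129S1/SvImJ (x axis) and CBA/J (y axis), with all 32 arrays on the left and without CBA/J control replicate 1 on the right; red points mark genes whose CR effects differed at an adjusted p under 0.05, blue rings mark PPAR-alpha targets, and the dotted line marks equal effects. Angptl4 and Ucp3 lie at the upper left in both panels, Ciart lies low near the vertical axis, and Tfrc lies at the upper right, above 0 in both strains.

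The PPAR-alpha target list held 40 genes, of which 35 were measured. The mean of the 35 genes was 9.21 to 9.40 on the arrays of 129S1/SvImJ controls and 8.60 to 9.09 under CR, and these ranges did not overlap. In CBA/J controls it was 8.31 on replicate 1 and 8.88 to 9.02 on the other 7 arrays, and it was 8.85 to 9.09 under CR. The CBA/J groups overlapped. The mean CR effect over the list was -0.46 in 129S1/SvImJ and 0.07 in CBA/J, a difference of -0.53. Without CBA/J control replicate 1 the effect in CBA/J was -0.01 and the difference -0.45. The opposite direction of the list as a whole therefore rested on that array, whose ventricular markers were low.

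Counted by gene, 32 of 35 targets were lower under CR in 129S1/SvImJ. In CBA/J 22 were higher under CR with all arrays and 12 without control replicate 1. The median effect was -0.28 in 129S1/SvImJ and 0.04 in CBA/J, or -0.05 without that array. Over all genes the median effects were 0.00 in both strains. The median of the difference was -0.32 over the targets and 0.01 over all genes. For the difference, 8 targets passed the threshold, all lower in 129S1/SvImJ, beside 0.231% of all genes, and 9 did without control replicate 1, beside 0.537%. The targets chose the pair, so nothing is read from these counts.

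**Figure D3:**
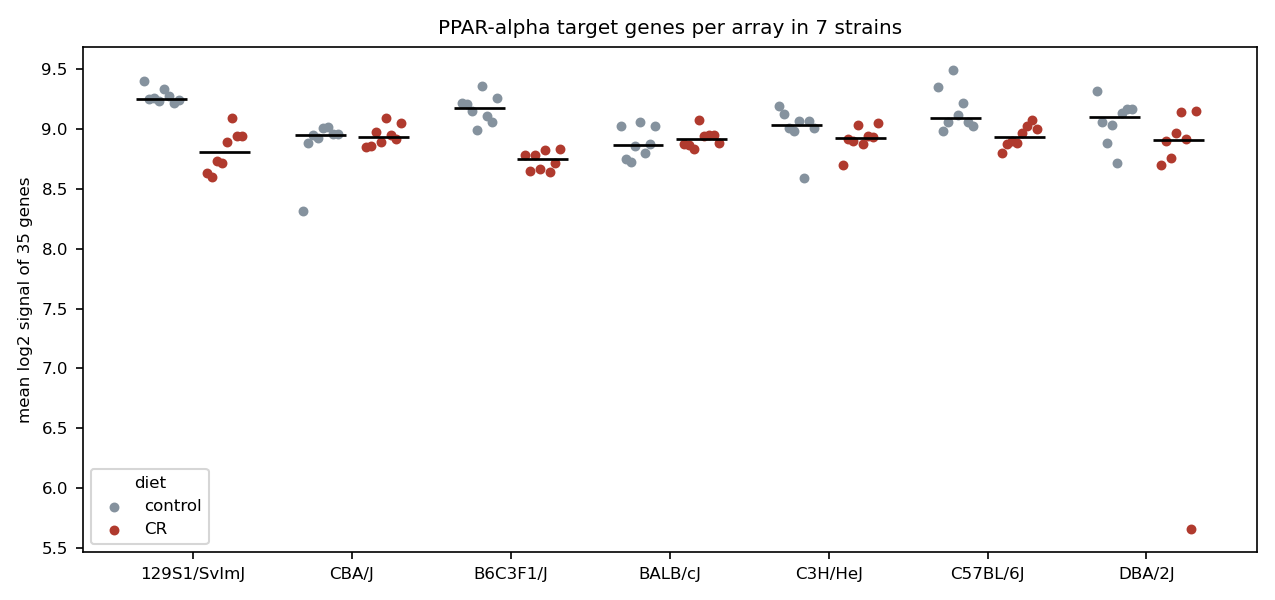
Mean log2 signal of 35 PPAR-alpha target genes (y axis) on each array of the 7 strains (x axis), for control and CR hearts; lines are medians of 8 arrays. The 129S1/SvImJ groups separate, at 9.21 to 9.40 and 8.60 to 9.09, while the CBA/J groups overlap except for control replicate 1 at 8.31; the low DBA/2J point is CR replicate 7.

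Angptl4 had the largest difference of all genes with opposed signs. Its log2 signal was 6.40 to 8.17 (median 7.36) in 129S1/SvImJ controls and 5.39 to 6.79 (median 5.90) under CR. In CBA/J it was 5.79 to 7.41 (median 6.46) in controls and 6.66 to 8.12 (median 7.56) under CR. The highest of the CBA/J controls was replicate 1, and the other 7 reached 6.85. Control hearts of 129S1/SvImJ and CR hearts of CBA/J shared the high range, and the other 2 groups shared the low one. CR minus control was -1.44 ± 0.24 (SE, n = 8 against 8) in 129S1/SvImJ and 0.93 ± 0.24 in CBA/J, a difference of -2.37 ± 0.33. The CBA/J effect was 1.06 when control replicate 1 was left out.

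Ucp3 showed the same crossing. Signals were 8.04 to 8.75 (median 8.31) in 129S1/SvImJ controls and 6.51 to 8.27 (median 7.23) under CR, against 5.48 to 7.33 (median 6.83) in CBA/J controls and 7.39 to 8.49 (median 7.92) under CR. The CBA/J groups did not overlap. In 129S1/SvImJ only CR replicate 6, at 8.27, reached the controls. The effects were -1.13 ± 0.22 in 129S1/SvImJ and 1.12 ± 0.22 in CBA/J, or 0.94 in CBA/J without control replicate 1.

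Pdk4 was opposed by sign with a far smaller shift in CBA/J. It lay at 12.21 to 12.57 (median 12.38) in 129S1/SvImJ controls and at 9.63 to 12.12 (median 11.00) under CR. The 129S1/SvImJ CR mice were widely spread, from 9.63 on replicate 1 to 12.12 on replicate 6, yet all were under the controls. CBA/J hearts lay at 10.48 to 11.82 (median 11.74) in controls, 11.59 or higher without replicate 1, and at 11.30 to 12.29 (median 12.00) under CR. The effects were -1.56 ± 0.26 and 0.34 ± 0.26. The CBA/J effect was 0.18 without control replicate 1 and 0.11 without all 3 arrays with high atrial markers, so its positive value was smaller than its SE there.

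The acyl-CoA thioesterases, which release free fatty acids from coenzyme A, shifted far in 129S1/SvImJ and little in CBA/J. The cytosolic Acot1 was 6.81 to 7.27 in 129S1/SvImJ controls and 4.88 to 6.44 under CR, with 5.20 to 6.45 and 5.55 to 6.21 in CBA/J controls and CR. Its CR effects were -1.56 ± 0.16 in 129S1/SvImJ and -0.07 ± 0.16 in CBA/J. For the mitochondrial Acot2 they were -1.36 ± 0.15 and -0.26 ± 0.15. The levels of Acot2 were 11.33 to 11.97 in 129S1/SvImJ controls, above every array of the other 3 groups. Mlycd, which removes the malonyl-CoA that blocks fatty acid entry into mitochondria, was 8.05 to 8.40 in 129S1/SvImJ controls and 7.09 to 7.84 under CR. Its effects were -0.82 ± 0.15 in 129S1/SvImJ and -0.01 ± 0.15 in CBA/J. Both strains thus had values below 0 for these genes. Without control replicate 1 the CBA/J effects were -0.17 for Acot1, -0.40 for Acot2 and -0.19 for Mlycd.

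The carnitine shuttle, which carries long fatty acids into mitochondria, showed smaller shifts of the same kind. Cpt1a, the outer membrane enzyme, was 8.77 to 9.16 in 129S1/SvImJ controls and 8.14 to 8.74 under CR, and 8.29 to 8.85 in the 7 other CBA/J controls against 8.19 to 9.09 under CR. Its effects were -0.36 ± 0.16 and 0.25 ± 0.16, and 0.05 in CBA/J without control replicate 1. The translocase Slc25a20 had effects of -0.37 ± 0.07 and -0.04 ± 0.07. Cpt2, the inner membrane enzyme, had -0.47 ± 0.17 and -0.01 ± 0.17, and -0.23 in CBA/J without that array. Among the uptake genes, the fatty acid translocase Cd36 fell in separate ranges in 129S1/SvImJ, 12.22 to 12.41 in controls and 11.94 to 12.13 under CR. Its effects were -0.31 ± 0.08 and 0.01 ± 0.08, and -0.08 in CBA/J without control replicate 1. The transporter Slc27a1 had -0.93 ± 0.24 and -0.09 ± 0.24, and -0.41 in CBA/J without control replicate 1. Fabp3, the fatty acid binding protein of heart muscle, and the lipase Lpl had effects of -0.20 and -0.19 in 129S1/SvImJ.

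**Figure D4:**
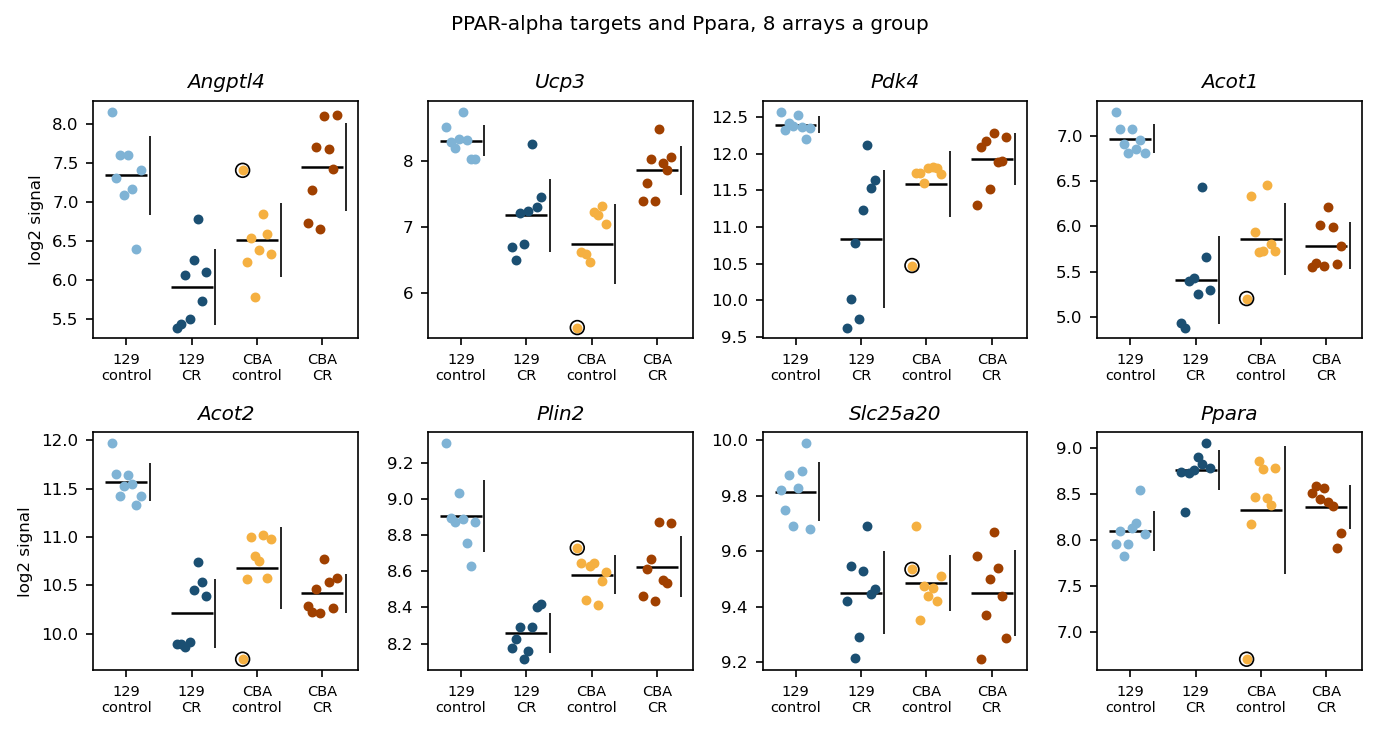
Log2 signal (y axis) of 7 PPAR-alpha targets and of Ppara on each array of the 4 groups (x axis); bars are means, vertical lines are SD over 8 arrays and rings mark CBA/J control replicate 1. Angptl4 and Ucp3 cross between strains, with CR low in 129S1/SvImJ and high in CBA/J, whereas every 129S1/SvImJ control lies above every other array for Acot1 and Acot2.

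The enzymes of mitochondrial beta-oxidation, 9 genes, all had effects below 0 in 129S1/SvImJ, from -0.28 in Etfdh to -0.10 in Eci1. In CBA/J all 9 lay above 0 with all arrays, at 0.14 or less, and Acaa2, at 0.00, turned below 0 under either other scaling. Without control replicate 1 they ranged from -0.21 in Etfdh to 0.04 in Eci1, with 8 of 9 below 0. The medium-chain dehydrogenase Acadm was 12.52 to 12.73 in 129S1/SvImJ controls and 12.07 to 12.69 under CR, and control replicate 1 of CBA/J was at 10.60 against 12.03 to 12.50 in the other CBA/J controls. No gene of this group passed the threshold for the difference, beside 0.231% of all genes lower and 0.11% higher in 129S1/SvImJ.

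Among the peroxisomal targets, the hydrogen peroxide scavenger catalase (Cat) had effects of -0.79 ± 0.08 in 129S1/SvImJ and -0.26 ± 0.08 in CBA/J. The peroxisome division factor Pex11a had -0.38 ± 0.08 and -0.17 ± 0.08. Ehhadh, the bifunctional enzyme of peroxisomal beta-oxidation, was one of the few further targets with opposed signs in both sets of arrays. It was 6.01 to 7.10 in 129S1/SvImJ controls and 5.87 to 6.43 under CR, and 6.03 to 6.56 in CBA/J controls and 6.11 to 6.98 under CR. Its effects of -0.28 ± 0.12 and 0.30 ± 0.12 came from overlapping groups, and its difference did not pass the threshold. The lipid droplet coat protein Plin2 separated in 129S1/SvImJ, at 8.63 to 9.31 in controls and 8.11 to 8.42 under CR. Its effects were -0.65 ± 0.08 in 129S1/SvImJ and 0.04 ± 0.08 in CBA/J, and the sign of the CBA/J value turned after another quantile normalization. Retsat, a retinol saturase, was lower under CR in both strains, with effects of -0.97 ± 0.10 and -0.35 ± 0.10. The lipolysis inhibitor G0s2 and Cyp4a14, a fatty acid hydroxylase, were the targets with a positive difference, 0.15 ± 0.23 and 0.47 ± 0.15, and that of G0s2 was -0.05 without CBA/J control replicate 1.

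In all, CR and control hearts of 129S1/SvImJ did not overlap for 13 of the 35 targets, lower under CR in each case, beside 0.903% of all genes. In CBA/J the groups were separate and higher under CR for 1 target, Ucp3, beside 0.1% of all genes with all arrays and 0.261% without control replicate 1. Both strains' groups were used to choose the pair, so nothing is read from these shares. Between the control groups, 16 of 35 targets were separate and higher in 129S1/SvImJ, beside 3.51% of all genes and, without CBA/J control replicate 1, 4.01%. Under CR 0 targets were separate and higher in 129S1/SvImJ, beside 1.57% of all genes, and 1, Plin2, was separate and lower, beside 1.96%.

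The level of the targets over both diets is a description too, since the diet effect differed between the strains and the 16 separate control levels against 0 under CR enter the same mean. By limma 13 of 35 targets passed an adjusted p of 0.05 as higher in 129S1/SvImJ and 0 as lower, beside 11.2% of all genes higher and 11.7% lower. Without CBA/J control replicate 1, 15 passed as higher and 1, Cd36, as lower, beside 13.2% and 14.4%. The dehydrogenases Acadl and Acadvl lay higher by 0.32 ± 0.06 and 0.41 ± 0.09. Angptl4 and Pdk4, whose diet effects were large, had -0.35 ± 0.17 and -0.14 ± 0.18. Sequence variants under the probes can also set such a level difference between strains, and their part was not tested.

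Ppara itself was higher under CR in 129S1/SvImJ, at 7.82 to 8.54 in controls and 8.31 to 9.06 under CR. In CBA/J it was 6.70 to 8.86 (median 8.46) in controls, with replicate 1 the lowest, and 7.91 to 8.59 (median 8.43) under CR. The effects were 0.67 ± 0.19 and 0.04 ± 0.19, and -0.19 in CBA/J without control replicate 1. With all arrays another quantile normalization gave 0.66 and -0.04. The sign of Ppara in CBA/J thus turned without that array or under that scaling, at values near or within the SE. In 129S1/SvImJ Ppara was higher under CR, where most targets were lower. In CBA/J without that array the mean of the targets was also slightly below 0, at -0.01. The coactivator Ppargc1a had effects of 0.36 ± 0.13 and 0.44 ± 0.13, 0.32 in CBA/J without that array, and its mean CR effect of 0.40 ± 0.09 passed the threshold (adjusted p = 0.00873, limma). Ppargc1a is also one of the brown adipocyte markers. Their mean was high on CBA/J CR replicates 2 and 3, at 8.53 and 7.93, and on CBA/J control replicate 1, at 9.11. The part of brown fat RNA in the CBA/J values was not tested. The partner receptor Rxra had effects of -0.16 ± 0.14 and 0.10 ± 0.14, and -0.07 in CBA/J without control replicate 1. Over the list the difference was below 0 for 11 of 16 regulators and, without that array, for 4. None of the 16 measured regulators and coactivators passed the threshold for the difference with all arrays, beside 0.231% of all genes lower and 0.11% higher. Without control replicate 1, Ppara passed as higher in 129S1/SvImJ, beside 0.532% of all genes. Sirt3, a mitochondrial deacetylase, was with Ppargc1a the other regulator whose mean CR effect passed, at 0.26 ± 0.06 (adjusted p = 0.00959, limma).

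Within 129S1/SvImJ, CR mice differed from each other more than controls did. The SD of the target mean was 0.17 under CR and 0.0619 in controls (n = 8 each). CR replicate 6 had the highest value of its group for 23 of the 35 targets, and replicates 1 and 2 had the lowest for 11 and 16. For Tfrc, Acta2 and Kcne1, which are outside the list, replicates 6 and 8 lay nearest to the controls. The transferrin receptor Tfrc read 6.83 and 7.16 on them, against 8.58 to 9.53 on the other 6 CR arrays and 5.81 to 6.20 in controls. Smooth muscle actin (Acta2) read 9.48 and 9.67, against 10.70 to 11.28 on the others. Kcne1, a potassium channel subunit, read 6.33 and 5.73 on them and 6.68 or more on the others. Their correlations with the mean of the rest of the group, 0.995 and 0.993, were like those of the other CR arrays. Leaving out replicate 6 moved the mean difference over the targets from -0.53 to -0.57.

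Across the 7 strains of the series, this pair held the extremes of the most responsive targets, which is how it was picked. CR minus control in Angptl4 was lowest in 129S1/SvImJ, at -1.44, and highest in CBA/J, at 0.93, with 0.42 in BALB/cJ and 0.39 in C3H/HeJ next below CBA/J. Ucp3 had the same order at that end, with 0.47 in BALB/cJ and 0.32 in C3H/HeJ. Over the list of 35 genes, B6C3F1/J with -0.43 lay close to 129S1/SvImJ, and DBA/2J with -0.54 lay below it, or at -0.13 without its CR replicate 7, an array that stood apart. BALB/cJ, with 0.03, lay close to CBA/J.

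Some genes that store and release triglyceride had lower signals under CR in 129S1/SvImJ, as the targets did. The hormone-sensitive lipase Lipe was 8.38 to 8.89 (median 8.59) in 129S1/SvImJ controls and 7.33 to 8.20 (median 7.72) under CR, and 7.70 to 7.99 (median 7.82) in CBA/J controls and 7.67 to 8.75 (median 7.95) under CR. Its effects were -0.84 ± 0.12 and 0.23 ± 0.12. The highest CBA/J CR value was replicate 2, which had high adipocyte markers, and without the 3 such arrays the CBA/J effect was 0.04. The adipose triglyceride lipase Pnpla2 had effects of -0.84 ± 0.18 and 0.11 ± 0.18, and -0.11 in CBA/J without control replicate 1. Gpam, which starts glycerolipid synthesis, had -0.82 ± 0.18 and -0.09 ± 0.18, and -0.33 in CBA/J without that array. Of the 14 measured genes 2 passed the threshold for the difference, Lipe and the acyltransferase Agpat3, both lower in 129S1/SvImJ, beside 0.231% of all genes.

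The marker list of the white adipocyte shares Lipe, Pnpla2, Plin1 and Cidec with this list. Its 9 genes averaged 6.37 to 6.88 in 129S1/SvImJ controls, 6.25 to 6.57 under CR, 6.23 to 6.38 in the 7 other CBA/J controls and 6.21 to 7.65 in CBA/J CR hearts. Of the 9 genes 8 were below 0 in 129S1/SvImJ, with a mean effect of -0.27 and a median of -0.06. For the difference 2 were called lower, beside 0.231% of all genes. Among the 9 genes, the defining markers adiponectin (Adipoq) and leptin (Lep) had effects of 0.00 and -0.01 in 129S1/SvImJ. Adipoq was dim there, at 4.74 or less, against 8.32 on CBA/J control replicate 1, so its effect cannot show a change in adipocyte content. The part of adipocyte RNA in the CBA/J values was not tested. In whole hearts, fewer cells of a type and less RNA per cell cannot be told apart.

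Some members of the circadian clock had effects of opposite sign in the strains. With all arrays the list of 17 genes was opposed by its mean but not by its median. The mean effects were 0.08 in 129S1/SvImJ and -0.16 in CBA/J, or -0.28 in CBA/J without control replicate 1. The median effects were 0.21 and 0.04, or -0.18 in CBA/J without that array. In the clock, Arntl and Clock form the activator that binds E-boxes in DNA, and Per, Cry, Ciart and Bhlhe41 act back on it as repressors, while Dbp is an output factor. The promoters of Ciart and Bhlhe41 are shown because both carry the E-box letters CACGTG, printed in capitals, in the 250 bases before the start of transcription (RefSeq, build GRCm38.p6, each 5′ to 3′ on the strand of the gene).
Ciart, chr3:95882229-95882478, minus strand: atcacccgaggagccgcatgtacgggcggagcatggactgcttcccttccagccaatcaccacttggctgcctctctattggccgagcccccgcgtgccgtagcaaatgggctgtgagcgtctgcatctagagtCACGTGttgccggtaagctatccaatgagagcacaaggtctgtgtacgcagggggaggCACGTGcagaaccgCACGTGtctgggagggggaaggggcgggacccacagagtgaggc
Bhlhe41, chr6:145865421-145865670, minus strand: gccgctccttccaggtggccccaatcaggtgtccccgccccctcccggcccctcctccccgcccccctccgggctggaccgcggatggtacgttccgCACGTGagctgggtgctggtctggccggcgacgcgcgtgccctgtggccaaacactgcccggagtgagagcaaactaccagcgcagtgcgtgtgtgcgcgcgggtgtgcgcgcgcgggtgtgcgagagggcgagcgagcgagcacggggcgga
Ciart has 3 such words, which begin at positions -116, -58 and -44 from the start, and Bhlhe41 has 1, which begins at -153. The word reads the same on both strands. Of all 32851 promoter windows of this length, 6.02% held it. Of the clock genes 15 had a window and 5 held it, the others being Cry1, Per1 and Tef. Among PPAR-alpha targets 28 had a window and 2 held it, Fgf21 and Slc27a1. The DR1 element, a direct repeat of AGGTCA with 1 base between that is the consensus of PPAR-alpha binding, was sought on both strands and was in 0 of those 28 windows and in 0.0335% of all windows. A match of letters is a description and not a bound site.

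Arntl was 5.90 to 7.11 (median 6.25) in 129S1/SvImJ controls and 4.86 to 5.36 (median 5.14) under CR, and 5.01 to 5.87 (median 5.24) in CBA/J controls and 5.23 to 5.78 (median 5.53) under CR. Every 129S1/SvImJ control lay above every array of the other 3 groups. The effects were -1.23 ± 0.14 in 129S1/SvImJ and 0.17 ± 0.14 in CBA/J, a difference of -1.41 ± 0.20. For Ciart the shift was in CBA/J instead. It was 6.77 to 7.75 (median 7.41) in CBA/J controls and 5.89 to 6.62 (median 6.30) under CR, with no overlap, against 6.67 to 7.79 (median 7.39) and 6.85 to 7.81 (median 7.68) in 129S1/SvImJ controls and CR. Its effects were 0.18 ± 0.17 in 129S1/SvImJ, within the spread of the mice, and -1.12 ± 0.17 in CBA/J. Bhlhe41 separated in CBA/J only just, at 6.93 to 7.53 in controls and 6.41 to 6.92 under CR, and was 6.78 to 7.12 and 6.94 to 7.41 in 129S1/SvImJ. Its effects were 0.23 ± 0.09 and -0.53 ± 0.09.

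Dbp crossed between the strains. It was 8.16 to 8.58 (median 8.38) in 129S1/SvImJ controls and 8.44 to 9.05 (median 8.87) under CR, and 8.15 to 9.14 (median 8.91) in CBA/J controls and 8.11 to 8.66 (median 8.31) under CR. CBA/J control replicate 1 was the lowest control, and the other 7 lay at 8.80 or higher, above every CBA/J CR heart. The effects were 0.47 ± 0.11 and -0.50 ± 0.11. Per2 had effects of 0.50 ± 0.17 and -0.27 ± 0.17, with wide groups. The receptor Nr1d1, which represses Arntl, was lower under CR in both strains, and its mean CR effect of -0.65 ± 0.14 passed the threshold (adjusted p = 0.00762, limma). Of 17 measured clock genes, 3 were called higher and 1 lower in 129S1/SvImJ for the difference, beside 0.11% and 0.231% of all genes. Without CBA/J control replicate 1 these counts were 9 and 2, the added genes being Per2, Per3, Nr1d2, Tef, Hlf and Bhlhe40 on the higher side and Clock on the lower side. The mean CR effect passed for 6 of the 17 genes, with 3 rises, in Cry1, Tef and Hlf, and 3 falls, in Arntl, Nr1d1 and Ciart, beside 1.84% of all genes that rose and 0.647% that fell. Cry1 rose by 0.34 ± 0.05 (adjusted p = 2.09e-04, limma).

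**Figure D5:**
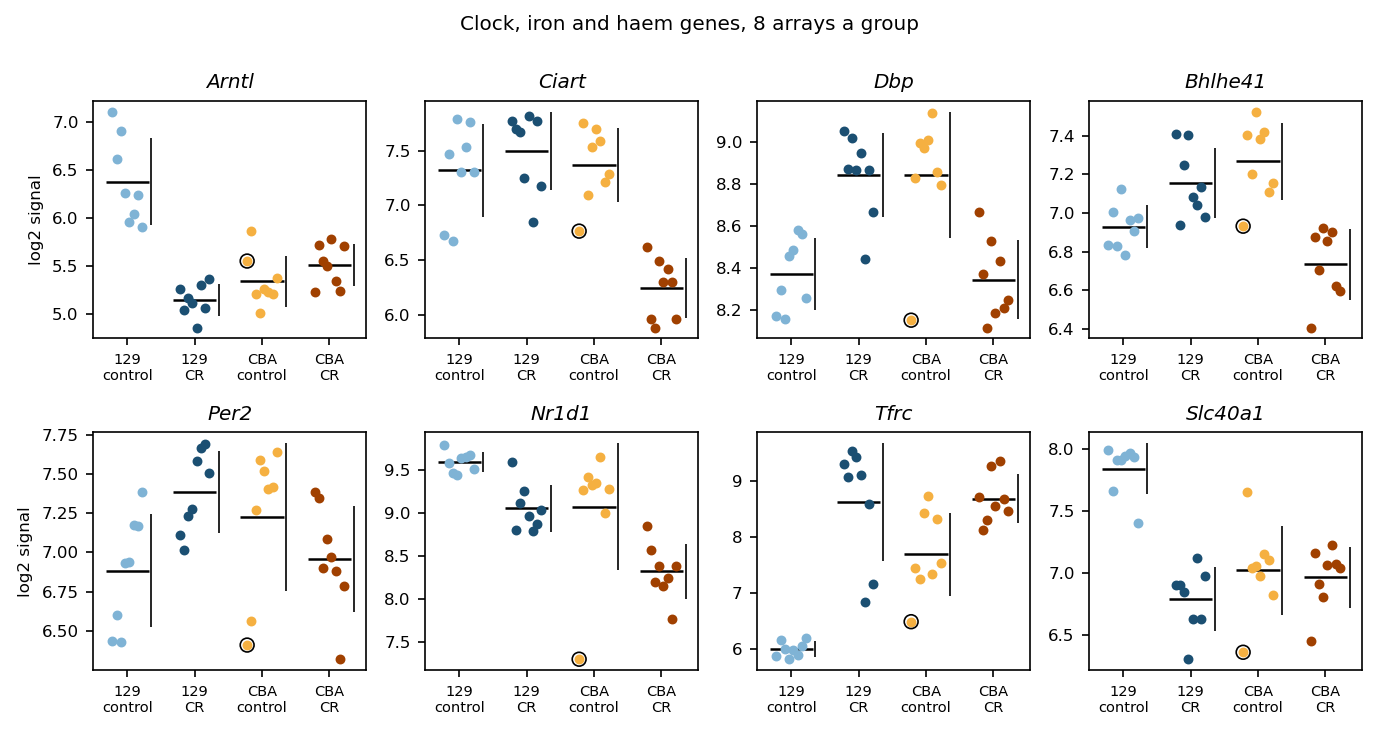
Log2 signal (y axis) of 6 clock genes and of the iron transporters Tfrc and Slc40a1 on each array of the 4 groups (x axis); bars are means, vertical lines are SD over 8 arrays and rings mark CBA/J control replicate 1. Arntl is high only in 129S1/SvImJ controls, Ciart is low only in CBA/J CR hearts, and Dbp is high in 129S1/SvImJ CR hearts and in CBA/J controls other than the ringed array.

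Other genes with opposed signs belonged to no single list. Kcne1, the accessory subunit of a cardiac potassium channel, was 4.97 to 5.68 (median 5.52) in 129S1/SvImJ controls and 5.73 to 7.38 (median 7.15) under CR, against 6.44 to 6.99 (median 6.76) and 6.13 to 6.89 (median 6.66) in CBA/J controls and CR. Acta2, the actin of smooth muscle, was 9.10 to 9.39 (median 9.27) in 129S1/SvImJ controls and 9.48 to 11.28 (median 10.81) under CR, against 10.60 to 11.32 (median 11.00) and 10.41 to 11.36 (median 10.81) in CBA/J. Both genes were low in 129S1/SvImJ controls alone. The effects were 1.42 ± 0.17 and -0.20 ± 0.17 for Kcne1, and 1.37 ± 0.19 and -0.16 ± 0.19 for Acta2, so the CBA/J values were near their SE. The other 8 smooth muscle and pericyte markers held 0 genes called for the difference, beside 0.231% of all genes lower and 0.11% higher.

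The transcription factor Myc had opposed effects, each larger than its error. It was 6.69 to 7.02 (median 6.97) in 129S1/SvImJ controls and 6.00 to 6.88 (median 6.22) under CR, and 5.18 to 5.75 (median 5.45) in CBA/J controls and 5.71 to 6.38 (median 5.98) under CR. Its effects were -0.58 ± 0.11 and 0.53 ± 0.11, and CR brought the strains closer together. Bnip3, a mitochondrial protein that promotes mitophagy, was 10.59 to 11.26 in 129S1/SvImJ controls and 9.63 to 10.30 under CR, with an effect of 0.02 in CBA/J that changed sign after another quantile normalization. H1f2, a linker histone, had effects of -0.64 ± 0.08 and 0.18 ± 0.08. Fam124b had -0.97 ± 0.14 and 0.23 ± 0.14, and Vwa3a had -0.88 ± 0.13 and 0.00 ± 0.13, with the value in CBA/J below 0 after centring and at -0.07 without control replicate 1.

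Further genes with the reverse signs had smaller shifts. Ier3, an immediate early gene, had effects of 0.19 ± 0.11 in 129S1/SvImJ and -0.47 ± 0.11 in CBA/J. Fam78a had 0.62 ± 0.13 and -0.23 ± 0.13, and Gm9909 had 0.45 ± 0.11 and -0.26 ± 0.11. Mid1ip1, which activates acetyl-CoA carboxylase, had 0.36 ± 0.10 and -0.28 ± 0.10. The endosomal protein Plekhf1 had 0.68 ± 0.11 and -0.03 ± 0.11.

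The mean CR effect of both strains could be tested. A gene can pass in it through a shift in 1 strain, as Slc40a1 did, or with opposed signs, as Arntl and Ciart did. The calls are thus not a count of genes that moved the same way in both strains. At an adjusted p under 0.05 (limma) 495 genes passed, 366 that rose (1.84%) and 129 that fell (0.647%). Without CBA/J control replicate 1 it was 1451, with 839 that rose (4.21%) and 612 that fell (3.07%). The split moved to 237 that rose and 175 that fell after another quantile normalization. Tfrc had the largest rise. Tfrc, the receptor that takes up transferrin-bound iron, was 5.81 to 6.20 (median 5.99) in 129S1/SvImJ controls and 6.83 to 9.53 (median 9.10) under CR, and 6.48 to 8.73 (median 7.49) in CBA/J controls and 8.13 to 9.37 (median 8.61) under CR. Its mean effect was 1.81 ± 0.22 (adjusted p = 2.15e-06, limma). The effects were 2.64 ± 0.31 in 129S1/SvImJ and 0.99 ± 0.31 in CBA/J, whose controls were widely spread, and their difference passed the threshold without CBA/J control replicate 1 but not with all arrays. Alas1, which starts haem synthesis, rose by 1.01 ± 0.14 (adjusted p = 1.33e-05, limma), with 1.49 in 129S1/SvImJ and 0.52 in CBA/J, or 0.36 without control replicate 1. Of the 23 measured iron and haem genes, 2 rose, Tfrc and Alas1, and 2 fell, the iron exporter Slc40a1 and the copper ferroxidase ceruloplasmin (Cp), beside 1.84% and 0.647% of all genes. Slc40a1 fell by 0.55 ± 0.09 (adjusted p = 3.96e-04, limma). Its effects were -1.05 ± 0.13 in 129S1/SvImJ and -0.05 ± 0.13 in CBA/J. The median mean effect over the list was 0.05, against -0.01 over all genes.

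Of the 9 measured tubulin genes 6 rose, beside 1.84% of all genes. Tuba4a was 9.13 to 9.46 in 129S1/SvImJ controls and 10.43 to 11.41 under CR, and 10.45 to 11.28 and 10.82 to 11.59 in CBA/J controls and CR. Its mean effect was 1.07 ± 0.09 (adjusted p = 3.75e-09, limma), from 1.77 in 129S1/SvImJ and 0.38 in CBA/J. Tuba8 rose by 0.85 ± 0.12 (adjusted p = 2.36e-05, limma). The others that rose were Tuba1a, Tubb5, Tubb6 and Tubg1. The median mean effect over the list was 0.41.

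Other rises were alike in size in both strains. Lyve1, a receptor of lymphatic endothelium and of resident macrophages, rose by 0.81 ± 0.09 (adjusted p = 5.57e-07, limma), with 0.84 in 129S1/SvImJ and 0.78 in CBA/J. Gsta3, a glutathione transferase, rose by 0.70 ± 0.08 (adjusted p = 2.04e-07, limma), and Cbr2, a carbonyl reductase, by 0.70 ± 0.13 (adjusted p = 0.00142, limma). The matrix protein Podn rose by 0.74 ± 0.17 (adjusted p = 0.0123, limma), but its highest CBA/J CR value, 10.06, was replicate 2, and without the 3 arrays with high atrial markers the CBA/J effect was 0.35. Of 10 macrophage markers 4 rose, Cd68, Cd163, Mrc1 and C1qa, beside 1.84% of all genes, and 6 rose without CBA/J control replicate 1, beside 4.21%. The macrophage markers averaged 6.35 to 6.60 in 129S1/SvImJ controls and 6.46 to 6.92 under CR, and 6.31 to 6.66 in the 7 other CBA/J controls and 6.57 to 7.21 under CR. Their part in the rise of Lyve1 and Cbr2 was not tested.

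Among the falls, the secreted ribonuclease Rnase1 had the largest mean effect, -1.01 ± 0.09 (adjusted p = 4.21e-09, limma). It was 7.13 to 7.80 in 129S1/SvImJ controls and 5.26 to 6.14 under CR, and 6.15 to 6.89 and 5.76 to 6.40 in CBA/J. Abhd1 had a mean effect of -0.91 ± 0.07 (adjusted p = 3.81e-10, limma), from -1.18 in 129S1/SvImJ and -0.64 in CBA/J. The desaturase Scd4 had -0.90 ± 0.10 (adjusted p = 4.01e-07, limma), from -1.20 and -0.60. Gclm, which supports glutathione synthesis, had -0.73 ± 0.08 (adjusted p = 5.97e-07, limma). It is one of the 20 measured NRF2 targets, of which 1 rose, Gsta3, and 2 fell, Gclm and the oxidase Aox1, beside 1.84% and 0.647% of all genes. Without CBA/J control replicate 1, 2 rose and 5 fell, beside 4.21% and 3.07%. Acot1, Acot2 and Retsat were also among the largest falls, and their values stand above as a description.

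Of 15 measured heat shock genes of the cytosol 3 fell, Hspa1a, Hsp90aa1 and Hspb7, beside 0.647% of all genes. With CBA/J control replicate 1 left out 9 fell, beside 3.07%. The inducible chaperone Hspa1a was 6.71 to 8.04 in CBA/J controls and 6.12 to 7.04 under CR, and 6.07 to 6.96 and 5.97 to 6.63 in 129S1/SvImJ. Its effects were -0.12 ± 0.16 in 129S1/SvImJ and -0.93 ± 0.16 in CBA/J, and the mean effect was -0.52 ± 0.12 (adjusted p = 0.00849, limma). The cochaperone Dnajb1 had effects of 0.15 ± 0.13 and -0.58 ± 0.13, again on the CBA/J side.

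Lists of glucocorticoid response, FoxO and atrophy, and interferon genes had mean differences of -0.28, -0.35 and -0.24, all lower in 129S1/SvImJ. Without CBA/J control replicate 1 they were -0.22, -0.21 and -0.19. The count of genes called for the difference was 1 of 18, 2 of 19 and 0 of 23, all lower in 129S1/SvImJ, beside 0.231% of all genes. The FoxO members called were Bnip3 and Cited2, a transcriptional cofactor. The atrophy ligase Fbxo32 had effects of -0.46 ± 0.24 in 129S1/SvImJ and 0.19 ± 0.24 in CBA/J, and -0.15 in CBA/J without that array. The glucocorticoid gene called was the sulfotransferase Sult1a1, with -0.20 ± 0.12 and 0.50 ± 0.12. The interferon GTPase Iigp1 had -1.04 ± 0.28 and 0.07 ± 0.28, with a single high CBA/J CR heart, replicate 7, at 9.70. Cd74, a chaperone of MHC class II, read 8.58 on the same heart, against 6.01 as the median of its group.

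In energy metabolism outside the PPAR-alpha targets, 0 of 48 respiratory chain, 0 of 16 citric acid cycle, 0 of 12 pyruvate dehydrogenase, 0 of 20 glycolysis and 0 of 5 ketone body genes were called for the difference (limma, all arrays). Over all genes 0.231% were called lower and 0.11% higher. At such shares lists of this size hold few or no calls, so the counts do not show that these genes were unaffected. When CBA/J control replicate 1 was left out, 2 glycolysis genes and 1 citric acid cycle gene were called higher in 129S1/SvImJ, beside 0.532% of all genes. The mean CR effects of the lists in CBA/J, in the order above, were 0.08, 0.08, 0.16, 0.12 and 0.12. Without control replicate 1 they were 0.05, -0.06, 0.02, -0.01 and -0.07. Hexokinase 2 (Hk2), which traps glucose in muscle, had effects of 0.64 ± 0.22 and 0.18 ± 0.22, and -0.11 in CBA/J without that array. The endothelial markers averaged 8.47 to 8.70 in 129S1/SvImJ controls and 8.22 to 8.49 under CR, and 8.32 to 8.62 in the 7 other CBA/J controls and 8.17 to 8.62 under CR. The tight junction gene Cldn5 was the 1 of 12 called for the difference, beside 0.231% of all genes called lower. Its effects were -0.71 ± 0.11 in 129S1/SvImJ and 0.02 ± 0.11 in CBA/J, or -0.04 in CBA/J without control replicate 1.

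The strain difference over both diets was far wider than either diet effect, with 4571 genes past an adjusted p of 0.05 (limma), and 5502 without CBA/J control replicate 1. The largest were Gdpd3, higher in 129S1/SvImJ by 4.78 ± 0.07 (adjusted p = 1.02e-33, limma), and the gene AI506816, lower by 3.88 ± 0.10 (adjusted p = 4.68e-25, limma). The sodium channel subunit Scn4b was lower in 129S1/SvImJ, at -2.92 ± 0.17 (adjusted p = 1.07e-15, limma). Others of the 5 largest each way were the olfactory receptor genes Olfr872 (3.84) and Olfr39 (2.66), Dnajc28 (3.12) and Klk1b22 (2.63). On the lower side were Hsd17b7 (-3.56), the small nucleolar RNA Snord53 (-3.46) and Aqp6 (-3.12). Sequence variants under the probes can set such differences between strains, and their part was not tested. Of 23 interferon genes 13 were lower and 2 higher in 129S1/SvImJ, of 29 matrix genes 16 were lower and 3 higher, and of 18 glucocorticoid genes 15 were higher and 0 lower, beside 11.2% of all genes higher and 11.7% lower.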

How the data were processed

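RNA from 112 mouse hearts (7 strains, control and CR, 8 arrays in each of 14 groups) had been hybridised, as 5 µg of RNA labelled with biotin, to Affymetrix Mouse Gene 1.0 ST arrays. The authors made the deposited log2 signals with the RMA-Sketch algorithm in Affymetrix Expression Console, which corrects background, normalises all arrays together and summarises probes per gene. The versions were not given in the sources used here. RMA draws arrays to a common distribution, so a shift of all genes cannot be seen. Precision rests on the number of arrays and on their spread within a group.

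The platform annotation paired 21789 of the 35556 probe sets with a single gene, 1621 with several and 12146 with none. The brightest probe set stood for each of 19938 genes. Groups came from the sample titles. The 32 arrays of 129S1/SvImJ and CBA/J were fitted with a mean per group in limma 3.58.1 (R 4.3.3; lmFit, eBayes, 2-sided, Benjamini-Hochberg over all genes). The fit was tested on simulated data with independent normal noise and without CBA/J control replicate 1. That test thus does not cover the effect of this outlying array on the fit of all 32 arrays. Figures were drawn with matplotlib 3.10.9 in Python 3.11.15. The members and gene lists were chosen with earlier results of these data known.

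Named genes were the 10 largest differences each way with opposed signs, a fixed set of PPAR-alpha targets, the 8 largest mean CR effects each way with the same sign in both strains, the 5 largest strain differences each way and up to 4 genes per list by size of the difference. Further members of a list are named where its count is small or its role is described. All 27 gene lists and 17 marker lists were computed. Alternatives were another quantile normalization, centring, a filter on dim genes, the mean of probe sets, array weights, marker covariates, all 14 groups in 1 fit, trended variance, an unmoderated model, the methods' t-test, a replicate block, and leaving out arrays.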

Additional observations from a re-analysis of the deposited data

Results flagged for a closer look

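One array far from the rest of its group was the most common reason for a closer look. The 4 groups of 8 arrays were scored on many gene and marker measures, which gave 196 checks. Of these, 28 held a highest or lowest array whose gap to its neighbour was large for the range of the group. Chance alone gives about 1 in 20 for a single check. The checks shared the same mice and were not independent, so nothing is read from the share. Of the 28, 20 were CBA/J control replicate 1.

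CBA/J control replicate 1 correlated with the mean of its group at 0.8945, below every other array. Its marker means were low for ventricular cardiomyocytes (10.45) and endothelium (7.29). They were high for atrial cardiomyocytes (8.68), white adipocytes (7.84), brown adipocytes (9.11), fibroblasts (9.04), lymphocytes and thymocytes (5.41), neutrophils and platelets (6.99), Schwann cells and neurons (6.14) and lung epithelium (6.01). The lung surfactant gene Sftpc read 3.80 on it, near the other arrays.

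The same array was the lowest of the CBA/J controls for the mean of the PPAR-alpha targets (8.31) and for the targets Ucp3 (5.48), Pdk4 (10.48), Acot2 (9.73), Mlycd (6.25), Cpt1a (7.10), Cd36 (11.65) and Acadm (10.60). The clock output gene Dbp was low on it too (8.15). Its part in the CR effects of CBA/J is given by the values without it.

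Among the CBA/J CR hearts, replicate 7 stood out by low endothelial markers (8.17) and high macrophage markers (7.21), and replicate 2 by high fibroblast markers (9.17). In 129S1/SvImJ, CR replicate 2 was low for ventricular markers (11.44) and Cpt1a (8.14). Control replicate 5 was high for brown adipocyte markers (6.82), control replicate 1 for smooth muscle markers (8.18), and control replicate 8 was low for Kcne1 (4.97).

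The CR effects of 129S1/SvImJ and CBA/J differed for 68 genes at an adjusted p under 0.05 by the interaction term of limma. The strain pair was selected on this contrast, so the count is a description.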

How the results depend on the processing

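Counts of genes past an adjusted p of 0.05 (limma) moved with CBA/J control replicate 1 and with several settings. When each array was left out in turn, the difference of CR effects gave 50 to 213 genes, the CR effect in 129S1/SvImJ 325 to 1303, the CR effect in CBA/J 15 to 169, the mean CR effect 338 to 1451 and the strain difference 4174 to 5502. The highest count was the fit without CBA/J control replicate 1 each time, and the next highest were 81, 506, 42, 597 and 4830. The CBA/J count fell to between 15 and 22 without any one of CR replicates 2, 3, 5 and 7 or control replicates 3, 4, 6 and 7. The mean difference over the PPAR-alpha targets was -0.57 to -0.45. Chosen after seeing the data, leaving out that array and CBA/J CR replicates 2 and 3 gave 202, 1546, 217 and 1885 genes for the difference, the effects in 129S1/SvImJ and CBA/J and the mean effect.

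Array weights gave 336, 1686, 310 and 1998 genes in the same order. Atrial and adipocyte marker means as covariates gave 620, 4035 and 1735 for the difference, the 129S1/SvImJ effect and the mean effect, and 8994 for the strain difference. The white adipocyte markers include Lipe and Pnpla2, which themselves shifted with diet in 129S1/SvImJ. These counts therefore cannot be read as an adjustment for tissue content alone. All 14 groups in 1 fit gave 19, 140, 4 and 117, and without DBA/2J CR replicate 7, which stands apart, 72, 459, 36 and 515. The filter on dim genes gave 54 for CBA/J. By the methods' t-test, 2104 genes in 129S1/SvImJ and 381 in CBA/J passed the methods' threshold, and 1386 and 2 passed after Benjamini-Hochberg. The causes were not tested.

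Replicate numbers did not pair the mice: over 48 pairs of the same number, deviations correlated at -0.194 to 0.248, with 13 over 0.1. A replicate block gave 75, 437, 36, 462 and 4594 genes. Of 55 calls for named genes, 35 held under every setting run for them (44 at most), 20 were lost under at least 1, and 0 reversed. The calls that held under every setting were unevenly spread. They were 10 of 10 for the strain difference and 14 of 16 for the mean CR effect, but only 11 of 29 for the difference of CR effects. The differences of Gclm, Ier3, Mid1ip1 and Sult1a1 were lost most often when 1 array was left out.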

Other observations

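Counts of the mean CR effect in further lists stand beside 1.84% of all genes that rose and 0.647% that fell. Without CBA/J control replicate 1 these shares were 4.21% and 3.07%. At such shares lists of this size hold few or no calls, so nothing is read from the counts of the mean effect. Of 20 cell cycle genes 0 rose and 1 fell in the mean CR effect (limma, all arrays). Of 48 respiratory chain genes 0 rose and 0 fell, with all arrays and without CBA/J control replicate 1. Of 14 calcium handling genes 0 changed with all arrays, and 2 rose without that array. Of 18 cholesterol synthesis genes 0 rose and 1 fell, and 5 were lower in 129S1/SvImJ over both diets, as were 7 of the cell cycle genes. Insulin and growth factor signalling genes were higher in 129S1/SvImJ for 10 of 23 and lower for 0 over both diets, beside 11.2% and 11.7% of all genes.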
